A study of Mus musculus with 8 samples.

Results

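The ligand sensors and partners through which liver cells adjust sterol, bile acid and drug metabolism were examined in 2 inbred mouse strains: Nr1h2 and Nr1h3 (the oxysterol receptors LXR beta and LXR alpha), Nr1h4 (the bile acid receptor FXR), Nr0b2 (the corepressor SHP), Nr1i2 and Nr1i3 (the xenobiotic receptors PXR and CAR), Rxra (their shared dimer partner RXR alpha), Rora (the monomeric receptor ROR alpha) and Por (cytochrome P450 oxidoreductase). The probes of a member were found by the gene name that the array assigns to them, a rule that uses no measured value. The 9 genes were represented by 13 probes, among 34778 genes and 55681 probes in all. The groups were livers of 4 male mice of the obese, diabetes-susceptible strain NZO/HiBomDife (NZO) and 4 male mice of the lean, diabetes-resistant strain C57BL/6 (B6). All 8 mice were 6 weeks old and received a high-fat diet with 45% fat, so that no mouse on another diet enters the comparison and an effect of strain cannot be told apart from a strain-specific response to the diet. Total RNA of each liver was labelled with Cy3 and hybridised to 1 Agilent 1-colour array per mouse. The question was which of these regulators differ in transcript level between the strains. In whole liver, fewer cells of a type and less RNA per cell cannot be told apart.

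LXR, FXR, PXR and CAR bind DNA mostly as dimers with RXR and sense lipids or foreign compounds that enter the hepatocyte. LXR targets export cholesterol and drive fatty acid synthesis, FXR targets secrete bile acids and, through SHP, repress their synthesis, and PXR and CAR targets oxidise, conjugate and export drugs, steroids and bilirubin. The microsomal P450 enzymes among these targets take their electrons from POR, which is no nuclear receptor itself. ROR alpha acts at the same response elements as the Rev-erb repressors and links the circadian clock to lipid and glucose genes. The activity of these receptors is set largely by ligands and by their location in the cell, which transcript levels do not report.

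The results turn mainly on 3 probes, those of Nr1i3 and Nr0b2. The first 30 of the 60 bases of each probe are shown so that the measured part of the transcript can be located, with the position of the whole probe as the array design gives it. They carry no capitals because no motif was searched in them.

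Nr1i3 A_55_P2035824, mm9 chr1:173148765-173148824, plus strand: tataaacaatgcatactcctatgaacttca

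Nr1i3 A_51_P358256, mm9 chr1:173147776-173147835, plus strand: aagagaagagatagatcagctacaagagga

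Nr0b2 A_51_P265338, mm9 chr4:133109694-133109753, plus strand: agtatacttaagaagatcctgctagaggaa

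Nr1i3 lies on chromosome 1 (GRCm38 chr1:171213934-171218845) and Nr0b2 on chromosome 4 (GRCm38 chr4:133553376-133556686). The 250 bases before the transcription start of both genes (RefSeq, GRCm38.p6) were searched on both strands for the nuclear receptor core motif AGGTCA and for CAAGGNCA, the extended core motif that monomeric receptors such as NR5A2 recognise. These motifs occurred in 14.0% and 5.53% of 32851 promoter windows of the same length. The windows of Nr1i3 and Nr0b2 follow, with a match in capitals, and that of Nr1i3 is shown for its first 214 bases, up to where the annotated gene begins.

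Nr1i3, GRCm38.p6 chr1:171213720-171213933, plus strand: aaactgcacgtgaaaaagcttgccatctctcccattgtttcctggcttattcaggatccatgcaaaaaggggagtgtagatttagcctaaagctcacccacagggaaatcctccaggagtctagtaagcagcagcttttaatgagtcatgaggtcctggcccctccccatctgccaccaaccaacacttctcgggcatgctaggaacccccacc

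Nr0b2, GRCm38.p6 chr4:133553126-133553375, plus strand: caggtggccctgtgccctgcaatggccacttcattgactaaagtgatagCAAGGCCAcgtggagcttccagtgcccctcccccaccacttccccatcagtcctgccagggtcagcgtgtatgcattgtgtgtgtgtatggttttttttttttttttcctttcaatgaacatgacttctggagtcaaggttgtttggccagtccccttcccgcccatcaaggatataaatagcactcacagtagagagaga

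The Nr1i3 window held neither set of letters. The Nr0b2 window held 1 match to CAAGGNCA, at 201 to 194 bases before the start, and none to AGGTCA. Of the 11 windows of the 9 members, 2 held AGGTCA, namely that of Nr1h4 at 214 to 209 bases before the start and that of the second Rxra start at 87 to 82 and 48 to 43 bases. No member window held 2 such motifs as a direct repeat with 0 to 5 bases between them, as an inverted repeat with 1 base or as an everted repeat with 6 bases. These matches describe the letters of the windows and no occupancy was measured.

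Nr1i3 was the only member that differed between the strains at the thresholds of the study, which were 0.05 on the unadjusted p-value and 0.7 on the size of the log2 fold change, and it was lower in NZO on both of its probes. Of the 13 member probes, 0 were called higher and 2 lower, and both calls held after adjustment over all probes. A probe was tested when each of the 4 mice of NZO, of B6 or of both gave a signal well above background, and of these 27662 probes 5.17% were called higher and 7.09% lower in NZO, and 4.34% and 5.29% after adjustment. These shares correspond to 1430 higher and 1960 lower probes, against 602 and 1515 when the unscaled deposited table was used. The median log2 fold change was -0.07 over the 13 member probes and 0.01 over all probes tested. The 11 probes that were not called ranged from -0.85 (Nr0b2) to 0.30 (Nr1h4). Well above background on all 8 arrays were 12 of the 13 probes.

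**Figure D1:**
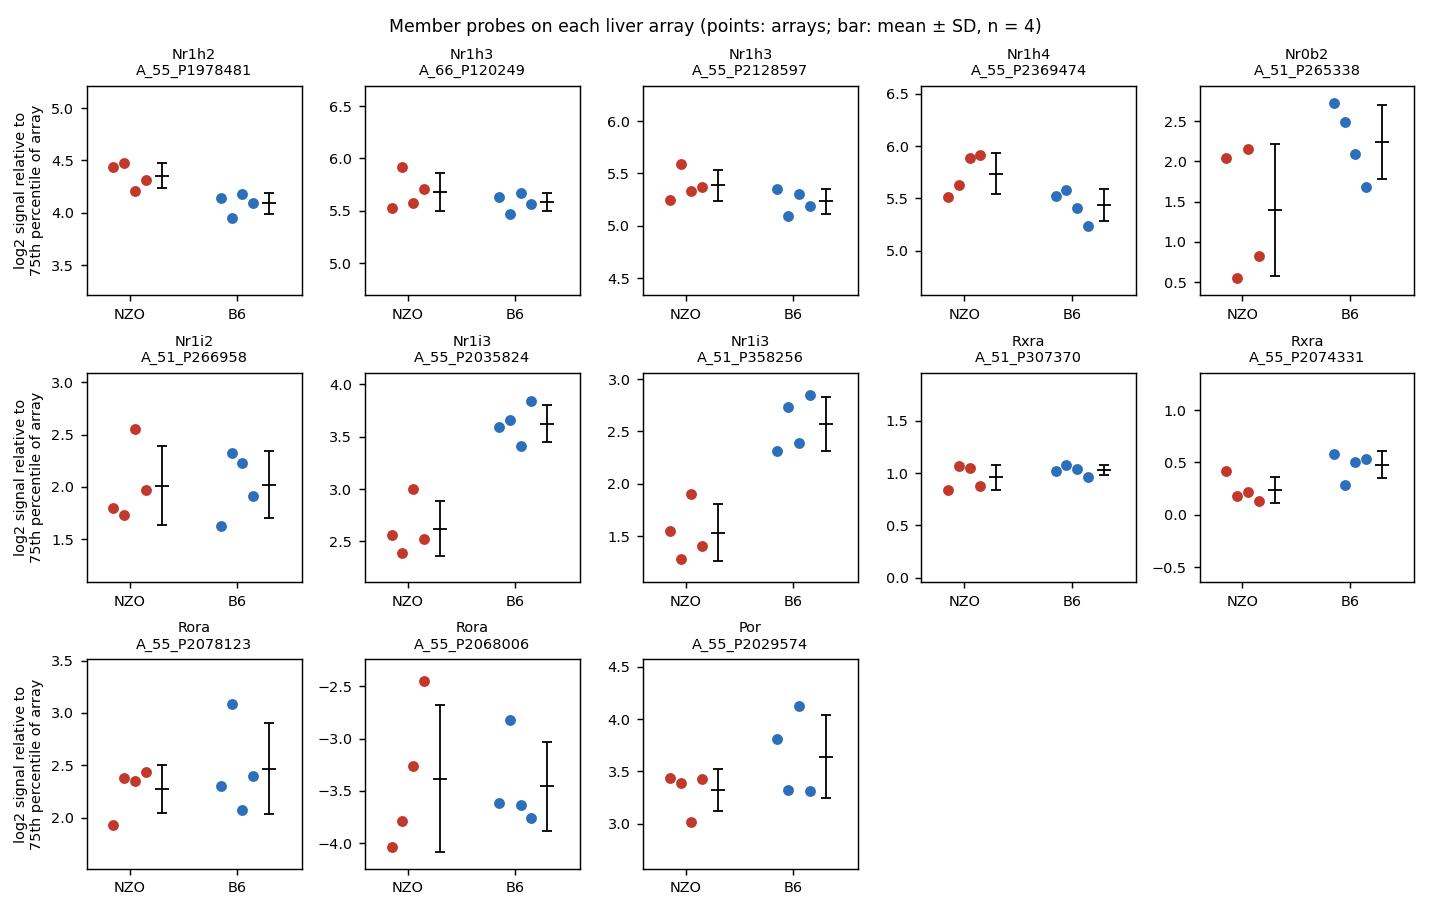
Level of each of the 13 member probes on the 8 arrays, as log2 signal relative to the 75th percentile of the array (y axis; scales differ between panels, each at least 2 units high), with NZO in red and B6 in blue; bars give mean ± SD, n = 4 mice per strain. Both Nr1i3 probes separate the strains without overlap, and Nr0b2 splits the NZO mice into a higher and a lower pair.

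Nr1i3 encodes CAR, which induces drug-metabolising enzymes when phenobarbital-like compounds or bilirubin accumulate. All levels below are log2 signals relative to the 75th percentile of the array. Probe A_55_P2035824 read 2.56, 2.39, 2.997 and 2.53 in NZO mice 007, 003, 009 and 011 and 3.59, 3.66, 3.41 and 3.84 in B6 mice 011, 010, 015 and 009. Probe A_51_P358256 read 1.55, 1.28, 1.90 and 1.40 in the same NZO mice and 2.31, 2.73, 2.39 and 2.85 in the same B6 mice. On both probes every NZO mouse was below every B6 mouse, with NZO mouse 009 the highest of its strain and NZO mouse 003 the lowest. The log2 fold change was -1.01 (SE 0.16, adjusted p = 0.00337, limma) on the first and -1.04 (SE 0.18, adjusted p = 0.00568, limma) on the second, a 2.01-fold and 2.05-fold higher level in B6. The strains did not overlap on 3 of the 13 member probes (both of Nr1i3 and that of Nr1h2), against 22.0% of all probes tested.

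The Nr1i3 difference was present on both scan days and on the slide that held both strains. Within the first day (3 NZO and 2 B6 mice) it was -0.90 and -1.03 for the brighter and the dimmer probe, within the second day (1 NZO and 2 B6 mice) it was -1.15 and -1.03, and within the shared slide (1 NZO and 2 B6 mice) it was -1.15 and -1.28. Before adjustment it passed the thresholds in all 19 alternatives tried, between -1.18 and -0.93 for the brighter and between -1.28 and -0.93 for the dimmer probe. With the slide as a fixed block, the strain difference came only from the shared slide, with NZO mouse 003 and B6 mice 010 and 015. That fit therefore gave the same value as the shared slide and rested on NZO mouse 003 alone. After adjustment the call of both probes was lost in that fit and in 1 other alternative.

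**Figure D2:**
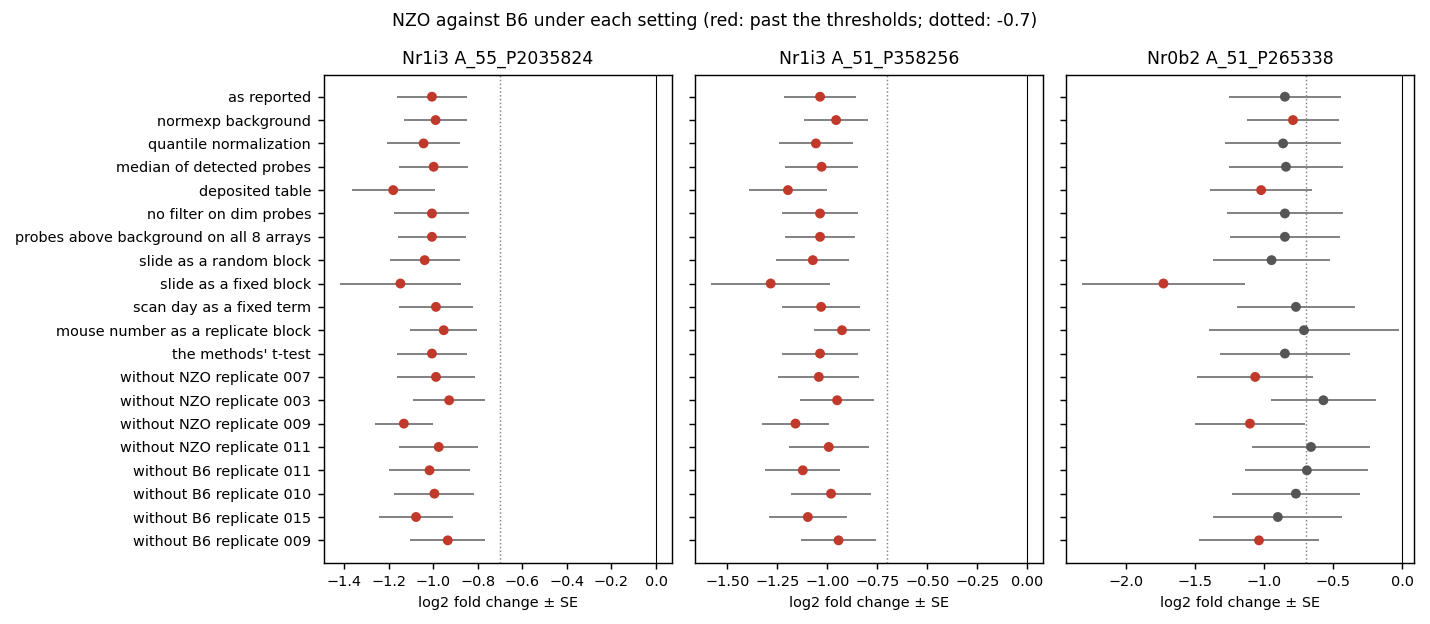
Log2 fold change, NZO against B6, of both Nr1i3 probes and the Nr0b2 probe under each of the 20 settings (rows), with lines of ± 1 SE, red points for values past the thresholds of the study and a dotted line at -0.7. Nr1i3 stays past the thresholds in each setting, whereas Nr0b2 passes them in 6 of 19 alternatives and ranges from -1.73 to -0.57.

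Nr0b2 encodes SHP, a receptor without a DNA-binding domain that FXR induces and that represses bile acid synthesis. Its probe read 2.04, 0.56, 2.16 and 0.83 in NZO mice 007, 003, 009 and 011 and 2.72, 2.49, 2.09 and 1.68 in B6 mice 011, 010, 015 and 009. NZO mice 003 and 011 lay below all B6 mice, whereas NZO mice 007 and 009 lay within the B6 range. The log2 fold change of -0.85 (SE 0.41, 95% confidence interval -1.79 to 0.09, adjusted p = 0.222, limma) did not pass the threshold on the p-value. It passed both thresholds before adjustment without NZO mouse 007 (-1.07), without NZO mouse 009 (-1.10) and without B6 mouse 009 (-1.04), and was smallest without NZO mouse 003 (-0.57). It also passed them with normexp correction (-0.79), in the deposited table (-1.02) and with the slide as a fixed block (-1.73). The last fit rested on NZO mouse 003 alone, which had the lowest Nr0b2 level. Within the first scan day the difference was -1.11 and within the second it was -0.16. Within the shared slide it was the same -1.73 as in the slide fit.

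The upstream receptor Nr1h4, which senses bile acids, was not called. Its probe read 5.51, 5.63, 5.88 and 5.92 in NZO mice 007, 003, 009 and 011 and 5.52, 5.58, 5.41 and 5.23 in B6 mice 011, 010, 015 and 009. NZO mouse 007 lay within the B6 range and the other NZO mice lay above it. The log2 fold change was 0.30 (SE 0.13, adjusted p = 0.181, limma), with an interval of -0.00 to 0.60. It was 0.05 in the deposited table and 0.14 with the slide as a fixed block, and was below 0.7 under every alternative run.

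Among the FXR target genes, 11 of 12 were tested (Slc51a was not well above background), 1 was called higher and 1 lower, and the median log2 fold change was 0.15, against 0.03 over all 20154 genes tested. Over all genes, each by its brightest probe, 5.24% were called higher and 6.62% lower in NZO. Abcb11, the bile salt export pump of the canalicular membrane, fell by 1.13 on the log2 scale (SE 0.11, adjusted p = 0.000328, limma). Its levels were 5.79, 5.85, 5.88 and 5.47 in NZO mice 007, 003, 009 and 011 and 6.83, 6.94, 6.89 and 6.86 in B6 mice 011, 010, 015 and 009, without overlap. Cyp7a1, the rate-limiting enzyme of bile acid synthesis and a gene that SHP represses, was higher by 1.51 (SE 0.43, adjusted p = 0.0510, limma) and thus just missed the threshold after adjustment. Its call was lost with the slide as a fixed block (1.48), which rested on NZO mouse 003 alone. Its levels were 1.77, 2.07, 2.03 and 3.14 in the NZO mice and 1.02, -0.33, 1.50 and 0.75 in the B6 mice, in the same order and without overlap. NZO mouse 011 had the highest Cyp7a1 level and a low Nr0b2 level. NZO mice 003 and 009, with the lowest and the highest Nr0b2 level of their strain, had similar Cyp7a1 levels of 2.07 and 2.03. The part of Nr0b2 in the Cyp7a1 difference was not tested. Cyp8b1, the sterol 12-alpha-hydroxylase of the same pathway, differed by 0.27 (SE 0.24), and the remaining tested genes of the list were not called either.

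Neither LXR gene was called. Nr1h2 encodes LXR beta, the form present in most cell types, and read 4.43, 4.47, 4.20 and 4.31 in NZO mice 007, 003, 009 and 011 and 4.14, 3.95, 4.18 and 4.09 in B6 mice 011, 010, 015 and 009. The NZO mice lay above the B6 mice without overlap, by 0.26 (SE 0.10, adjusted p = 0.135, limma), which is below the threshold of 0.7. The difference was 0.05 in the deposited table and 0.41 with the slide as a fixed block. Nr1h3 encodes LXR alpha, the form enriched in liver and macrophages. Its probe A_66_P120249 ranged from 5.52 to 5.92 in NZO and from 5.47 to 5.67 in B6, and A_55_P2128597 from 5.24 to 5.59 and from 5.09 to 5.35, with overlap on both. The log2 fold changes were 0.10 (95% confidence interval -0.16 to 0.36) and 0.15 (-0.10 to 0.41), so that both intervals lie within the thresholds. The sign turned in the deposited table (-0.11 and -0.07), in which the median of all probes was -0.15. The differences were 0.35 and 0.39 (SE 0.19 on both) with the slide as a fixed block and 0.02 and 0.09 without NZO mouse 003.

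Of the 14 LXR target genes, 0 were called higher and 3 lower, with a median of -0.14. Abcg5 and Abcg8 together encode the sterol exporter that moves cholesterol into bile. Abcg5 fell by 0.82 (SE 0.17, adjusted p = 0.0149, limma), with levels of 4.01, 4.36, 4.62 and 3.93 in NZO and 4.93, 4.98, 5.31 and 4.997 in B6, in the order of mice used above and without overlap. Abcg8 was called lower before adjustment only, by -0.81 (SE 0.30, adjusted p = 0.122, limma), and the strains overlapped in NZO mouse 009. It was lost on leaving out NZO mouse 007 or 011 or B6 mouse 010 or 015, with a difference of -0.55 without NZO mouse 011. Srebf1, which encodes the SREBP-1 transcription factor of fatty acid synthesis, fell by 0.79 (SE 0.17, adjusted p = 0.0159, limma), from 1.33 to 1.94 in B6 to 0.49 to 1.02 in NZO. Fasn and Scd1, lipogenic enzymes downstream of SREBP-1, differed by -0.03 and -0.11 and were not called. The calls of Abcg5 and Srebf1 were lost with the slide as a fixed block (-0.78 and -0.52), which rested on NZO mouse 003 alone. Srebf1 also fell below the threshold on size without NZO mouse 007 (-0.69) or B6 mouse 009 (-0.67).

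**Figure D3:**
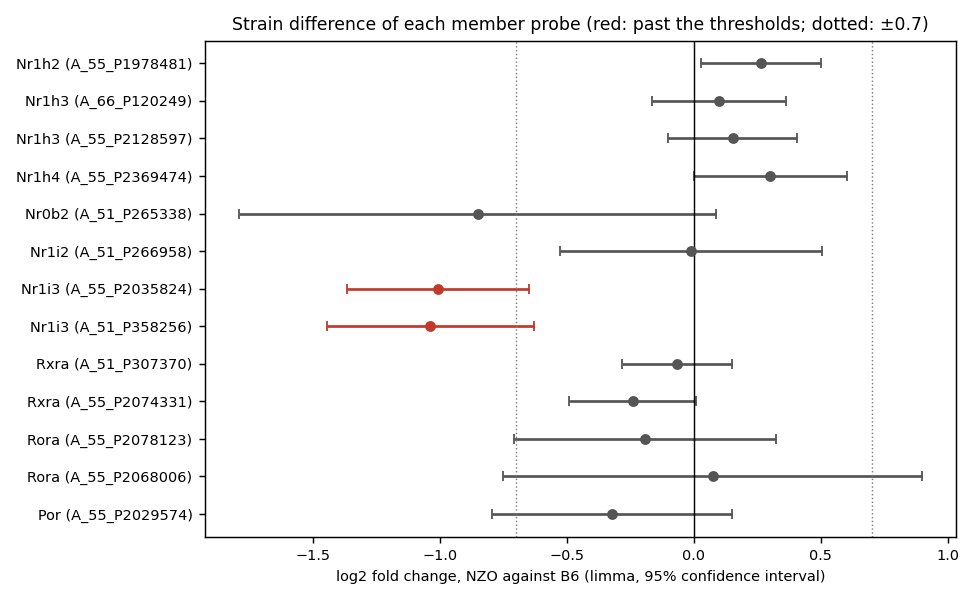
Log2 fold change, NZO against B6, of each member probe (rows) with its 95% confidence interval from limma; dotted lines mark the thresholds of 0.7 in either direction and red marks probes past the thresholds. Both Nr1i3 intervals lie below 0, the Nr0b2 interval is wide and spans 0, and the Nr1h2, Nr1h3, Nr1h4 and Rxra intervals stay within the thresholds.

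Nr1i2 encodes PXR, the second xenobiotic receptor, which shares many targets with CAR. It read 1.80, 1.73, 2.56 and 1.97 in NZO mice 007, 003, 009 and 011 and 1.63, 2.32, 2.23 and 1.91 in B6 mice 011, 010, 015 and 009. NZO mouse 009 lay above every B6 mouse, B6 mouse 011 below every NZO mouse, and the other 6 mice were interleaved. The log2 fold change was -0.01 (SE 0.22, 95% confidence interval -0.52 to 0.50). It moved to -0.19 without NZO mouse 009, -0.23 in the deposited table and -0.55 (SE 0.29) with the slide as a fixed block. It was not called in any of these.

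The listed targets of PXR and CAR differed between the strains in both directions. Of 16 genes tested (Ugt1a1 was not assigned a probe), 2 were called higher and 4 lower in NZO, all also after adjustment, and the median was -0.13. Cyp2b10, the P450 most used as a readout of CAR, read 0.14, 1.02, 1.72 and 0.79 in NZO mice 007, 003, 009 and 011 and -6.62, -5.69, -3.52 and -4.59 in B6 mice 011, 010, 015 and 009. All 4 NZO arrays but only 1 of the 4 B6 arrays were well above background. The measured log2 fold change of 6.02 (SE 0.64, adjusted p = 0.000484, limma) therefore depends on how background was treated. It was 2.43 with normexp correction, whose added offset of 50 itself shrinks the differences of dim probes. Cyp2b9, a related P450, was well above background on no B6 array and was at least 5.42-fold higher in NZO. Its levels were -2.49, -1.79, -0.79 and -2.21 in the NZO mice. The p-value behind its call (adjusted p = 0.000962, limma) was computed on B6 signals not above background and does not belong to that bound. Both Cyp2b genes were higher in the strain with the lower Nr1i3 transcript.

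The other 4 changed genes of the list were lower in NZO, as Nr1i3 was. Cyp2c55, a P450 of the same inducible class, fell by 3.18 on the log2 scale (SE 0.38, adjusted p = 0.000831, limma), from -0.97 to 0.35 in B6 to -4.50 to -3.15 in NZO, where 3 of 4 arrays were well above background. With normexp correction its difference was -1.09. Abcc3, a basolateral exporter of glucuronides and bile acids, read 2.19, 2.26, 2.20 and 2.23 in NZO and 3.30, 3.49, 3.32 and 3.76 in B6, a difference of -1.25 (SE 0.12, adjusted p = 0.000264, limma). Ces2a, a carboxylesterase, differed by -1.20 (SE 0.10, adjusted p = 0.000152, limma) and Slco1a4, an organic anion importer, by -0.93 (SE 0.22, adjusted p = 0.0252, limma; -0.54 with normexp correction), and the strains did not overlap in any of these genes. Cyp3a11, the main PXR-responsive P450, gave 2 answers, since its brightest probe A_55_P2121225 differed by 0.01 (SE 0.28) and A_51_P355301 was higher in NZO by 1.55 (SE 0.26, adjusted p = 0.00478, limma).

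**Figure D4:**
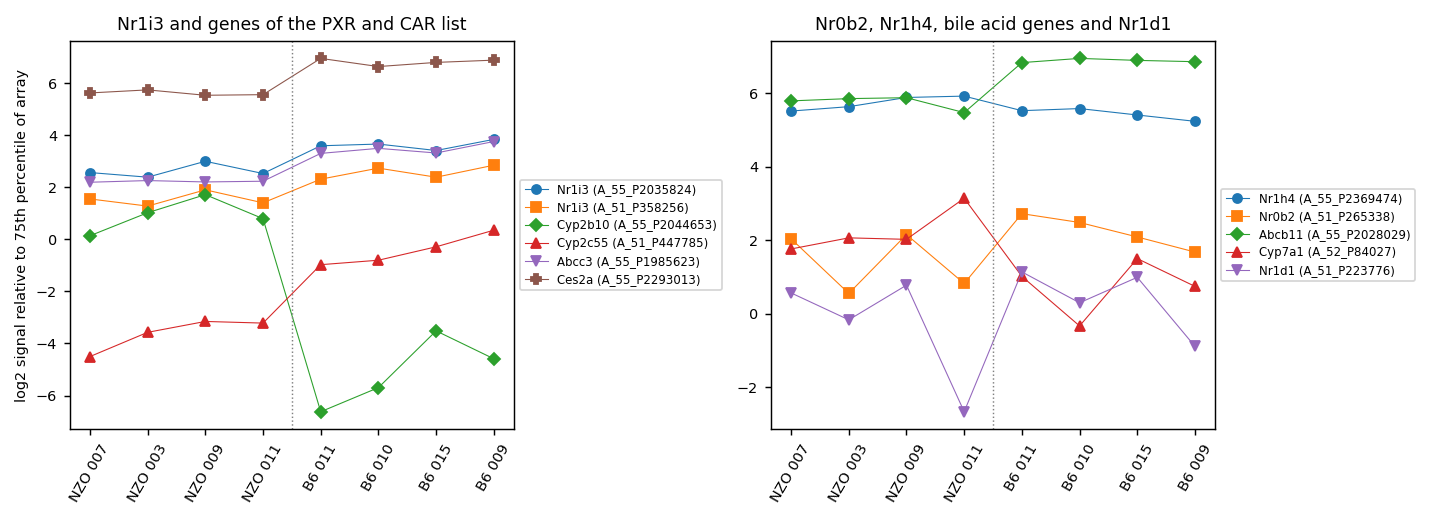
Levels on each of the 8 arrays (x axis; the dotted line separates the strains) as log2 signal relative to the 75th percentile of the array, for Nr1i3 and 4 genes of the PXR and CAR list on the left and for Nr0b2, Nr1h4, 2 bile acid genes and Nr1d1 on the right. Levels of different probes are not comparable, so only the course of 1 probe over the arrays can be read. Abcc3 and Ces2a shift between the strains in the same direction as Nr1i3, Cyp2b10 in the opposite one, and Nr0b2 and Nr1d1 vary widely within a strain.

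Rxra, the dimer partner of the LXR, FXR, PXR and CAR proteins, was measured by a pair of probes. A_51_P307370 ranged from 0.84 to 1.07 in NZO and from 0.96 to 1.08 in B6, with a log2 fold change of -0.07 (95% confidence interval -0.28 to 0.15). A_55_P2074331 read 0.42, 0.18, 0.22 and 0.13 in NZO mice 007, 003, 009 and 011 and 0.58, 0.29, 0.50 and 0.54 in B6 mice 011, 010, 015 and 009. NZO mouse 007 and B6 mouse 010 crossed on the second probe, the difference was -0.24 (SE 0.11, adjusted p = 0.195, limma), and neither probe was called. In the deposited table the differences were -0.30 and -0.43, also not called.

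Rora was measured on the reference transcript by A_55_P2078123 and on an Ensembl transcript by A_55_P2068006. The first probe ranged from 1.93 to 2.44 in NZO and from 2.08 to 3.09 in B6, with the B6 maximum in mouse 010, and differed by -0.19 (SE 0.22), or by 0.014 without that mouse. The second ranged from -4.03 to -2.45 and from -3.76 to -2.83, was well above background on 3 of the 4 NZO arrays and all B6 arrays, and differed by 0.07 (SE 0.36, 95% confidence interval -0.75 to 0.90), or by -0.24 without NZO mouse 011. Neither was called, and the wide interval of the second probe reaches past both thresholds.

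Of the listed genes of ROR alpha and the Rev-erb repressors, 11 of 12 were tested. Cry1 was not, being well above background on only 1 NZO and 2 B6 arrays. Of the genes tested, 1 was called higher and 0 lower, with a median of 0.25 that turned to -0.08 in the deposited table. Fgf21, a hormone that the liver secretes in fasting and in sugar excess, was higher by 2.45 (SE 0.65, adjusted p = 0.0403, limma). It read 0.65, 0.20, 0.84 and -1.72 in NZO mice 007, 003, 009 and 011 and -1.33, -2.08, -3.53 and -2.88 in B6 mice 011, 010, 015 and 009, so that NZO mouse 011 lay within the B6 range. The call was lost with the slide as a fixed block, where the difference was larger (2.999) but rested on NZO mouse 003 alone. Nr1d1 encodes Rev-erb alpha, whose transcript cycles strongly over the day. It spread over more than the strain difference, with 0.57, -0.16, 0.78 and -2.66 in the NZO mice and 1.14, 0.30, 0.99 and -0.88 in the B6 mice. In Nr0b2, Nr1d1 and Fgf21 alike, NZO mice 003 and 011 were below NZO mice 007 and 009. Nr1d2, of the same list, did not follow this split. It read 0.52, 0.78, 0.60 and -0.21 in NZO mice 007, 003, 009 and 011, with mouse 003 the highest. Arntl, which encodes the clock activator BMAL1, ranged from 1.67 to 2.18 in NZO and from 0.57 to 2.13 in B6. The time of tissue collection was not given in the sources used here, and its part in these values was not tested.

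Por, the electron donor of the microsomal P450 enzymes, read 3.44, 3.39, 3.02 and 3.43 in NZO mice 007, 003, 009 and 011 and 3.81, 3.32, 4.12 and 3.31 in B6 mice 011, 010, 015 and 009. B6 mice 011 and 015 lay above all NZO mice and the other B6 mice within the NZO range. The log2 fold change was -0.32 (SE 0.21, 95% confidence interval -0.79 to 0.15, adjusted p = 0.354, limma), and it was -0.16 without B6 mouse 015 and -0.50 in the deposited table. Among 11 other electron donors and partners of POR, 2 were called higher and 2 lower, and the median was -0.11. Hmox1, the haem oxygenase that takes electrons from POR, fell by 0.93 (SE 0.15, adjusted p = 0.00464, limma) on its brighter probe and differed by -0.24 on the other, which was not called. Cyb5r1, a cytochrome b5 reductase, fell by 0.71 (SE 0.12, adjusted p = 0.00620, limma), and was below the threshold on size without 1 of NZO mice 007 and 011 or B6 mice 010 and 015 (-0.65 to -0.68). Sqle and Cyp51, POR-dependent enzymes of cholesterol synthesis, were called higher before adjustment only, by 0.84 and 0.71 (adjusted p = 0.127 and 0.117, limma). With 1 mouse left out at a time, 3 and 4 of 8 fits kept these calls, with the smallest differences 0.62 (without B6 mouse 009) and 0.55 (without NZO mouse 009).

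Of 30 other nuclear receptors, 26 were tested, 2 were called higher and 1 lower, with a median of 0.11. Esrrg, an orphan receptor of oxidative metabolism, was higher by 2.34 (SE 0.48, adjusted p = 0.0127, limma), with 2 of 4 B6 arrays well above background. With normexp correction its difference was below 0.7 (0.65). Nr4a1, an immediate early orphan receptor, was called lower before adjustment only (-1.17, adjusted p = 0.113, limma). B6 mouse 010 read 1.66 and the other B6 mice -0.20, -0.11 and 0.23, and without it the difference was -0.75. The call was lost without NZO mouse 003, 009 or 011. Hnf4a, the master regulator of hepatocyte identity, differed by 0.03, Ppara by 0.06 and Nr5a2, which recognises CAAGGNCA, by -0.01.

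Among 15 coregulators of the receptors, 1 was called higher and 2 lower, with a median of -0.03, and probes of the same gene disagreed for both genes called after adjustment. Crebbp, an acetyltransferase, was higher by 1.88 on its brighter probe and differed by -0.26 on the other. Med1, the Mediator subunit that contacts nuclear receptors, was lower by -1.50 on its brightest probe and differed by 0.32, -0.31 and 0.07 on the others. Ppargc1b, a coactivator, was called lower before adjustment only (-0.92, adjusted p = 0.137, limma), with 1 of 4 NZO arrays well above background. It kept this call in 4 of 8 fits with 1 mouse left out, and the smallest difference was -0.66 without B6 mouse 015. Sequence differences between the strains under the probes were not analysed here.

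**Figure D5:**
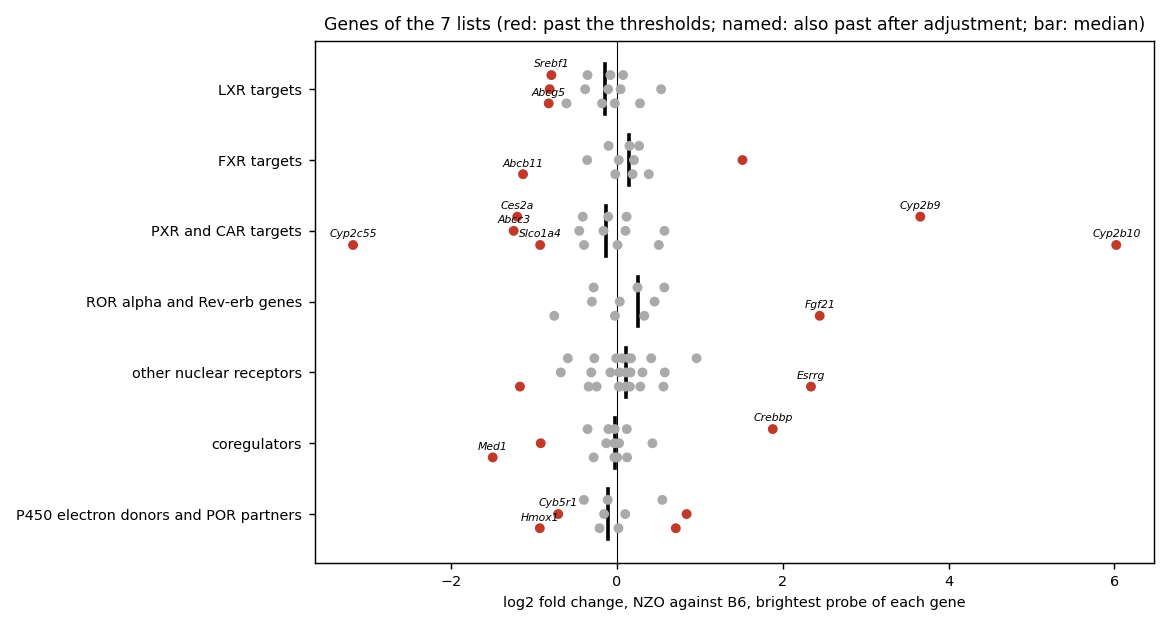
Log2 fold change, NZO against B6, of the tested genes of 7 lists (rows) apart from 2 genes not reported here, each gene by its brightest probe, offset vertically for legibility; red marks genes past the thresholds, names those also past them after adjustment, and black bars the medians over all tested genes of a list. Cyp2b9, drawn at its measured value, was not well above background in B6. The medians lie between -0.14 and 0.25. Cyp2b10 at 6.02 and Cyp2c55 at -3.18 were near background in B6 and in NZO, respectively, and were at 2.43 and -1.09 with normexp correction.

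Markers of liver cell types were read on the same arrays. All 5 hepatocyte markers were well above background on all arrays and 0 were called, and the probe of Alb gave the brightest signal of the list, which is a comparison of probe signals and not of transcript amounts. Of 6 Kupffer cell markers, 3 were called lower in NZO (Clec4f, Marco and Cd5l), and the list's summed signal relative to the 75th percentile was 96.2, 101, 87.0 and 88.8 in NZO mice 007, 003, 009 and 011 and 166, 148, 198 and 140 in B6 mice 011, 010, 015 and 009, with the brightest probe that of Cd5l. All 3 red blood cell markers were called higher in NZO, Hba-a1 and Alas2 also after adjustment and Hbb-b1 before adjustment only (0.81, adjusted p = 0.0704, limma; not called without NZO mouse 009 or B6 mouse 015), with sums of 365, 318, 469 and 292 against 207, 164, 155 and 196 and the brightest probe that of Hba-a1. The Kupffer cell and red blood cell sums separate the strains without overlap, as Nr1i3 does. So does the hepatocyte sum, which was higher in NZO (3789 to 3917) than in B6 (3002 to 3766), opposite to Nr1i3. The sum is weighted to its brightest probes. Alb and Ttr differed by 0.27 and 0.15 without overlap, whereas Apoa1, Cps1 and Tat differed by 0.00, -0.02 and -0.31 with overlap. The part of these cell types in the Nr1i3 difference was not tested.

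Of the 3 bile duct markers tested, 2 were called lower, Sox9 also after adjustment and Krt7 before adjustment only (adjusted p = 0.0908, limma; difference -0.64 without NZO mouse 011). The sums over the 4 listed markers include Epcam, well above background on 0 of 4 NZO arrays. They were 0.69, 0.59, 0.77 and 0.47 against 1.14, 1.26, 1.20 and 1.53, again without overlap. The probe with the highest mean was that of Krt19 in NZO (-1.70) and that of Sox9 in B6 (-0.82). No marker of endothelial cells (4), stellate cells (3) or lymphocytes (2) was called. The adipocyte markers Adipoq and Plin1 and the pancreatic markers Pnlip and Cpa1 were well above background on no array. The remaining adipocyte marker, Lep, was well above background on 1 NZO and 3 B6 arrays and was not tested. The remaining pancreatic marker, Cela1, was well above background on all arrays and was not called. The sum of the skeletal muscle markers was 15.3 in NZO mouse 007 and 5.02 in B6 mouse 010, and at most 1.20 on the other arrays. The Nr1i3 difference without NZO mouse 007 was -0.99 and -1.04, and without B6 mouse 010 it was -0.995 and -0.98.

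As a description over 8 arrays, the gene whose level followed that of each member most closely, among 13288 genes, was Mad1l1 for Nr1h2 (Pearson r = 0.984), Rnaseh2b for Nr1h3 (0.982), Ndrg3 for Nr1h4 (0.964), Depp1 for Nr0b2 (0.933), Dennd1b for Nr1i2 (0.943), Adgrf5 for Nr1i3 (0.991), Plscr1 for Rxra (0.976), Rad50 for Rora (0.966) and St14 for Por (0.951). The arrays share strain as a source of variation, and the highest of so many correlations over 8 points is large by selection.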

How the data were processed

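Liver RNA of 4 NZO and 4 B6 mice was measured on 1-colour arrays, 1 array per mouse. Per the file headers, the deposited intensity values were made with Agilent Feature Extraction 11.0.1.1 (the submitters' processing notes name version 9.1), which subtracts background and corrects trends within an array but does not scale arrays. The authors' table of all arrays, named as normalized, equalled the raw median intensities at 59305 of 59305 spots per array (tolerance 0.01). The flags deposited with each spot (well above background, outlier) were used as given.

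Control spots and 96 to 137 outlier spots per array were left out, log2 of the processed signal was taken, the 75th percentile of the array was subtracted, and spots of 1 probe were averaged. Of 55681 probes, those with a signal well above background in each of the 4 mice of NZO, of B6 or of both were kept (27662). Different probes of a gene stayed separate for the members, and other genes were given by their brightest probe. The strains were compared in R 4.3.3 with limma 3.58.1 (lmFit and eBayes, two-sided), and p-values were adjusted by Benjamini-Hochberg over all probes tested. The thresholds were those of the study's methods. Where a probe was dim in all B6 arrays, a lower bound of the fold was computed from the lowest signal well above background. The alternative with normexp correction added an offset of 50 to each corrected signal, which itself shrinks the differences of dim probes. The fit was tested on simulated data.

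Probes were named as in the array files, updated through RefSeq tables by accession (27656 probes), symbol (3347), synonym (312) or another accession (85), and 24281 probes kept the file's name. The array coordinates are mm9, those of genes and promoters GRCm38.p6. Whether a probe lies in a coding or untranslated exon was not analysed here.

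The members and gene lists were chosen with earlier results of these data known. All members, and in each list the genes called before and after adjustment (at most 4 per direction), were named, as was the gene with the highest correlation to each member. Cyp7a1, Cyp8b1, Cyp3a11, Abcg8, Fasn, Scd1, Nr1d1, Nr1d2, Arntl, Sqle, Cyp51, Nr4a1, Hnf4a, Ppara, Nr5a2, Ppargc1b and the marker genes were named after their values were seen. Some genes of the lists are counted but not reported here by name. The arrays came from 5 slides, read in 2 days of scanning. The number of arrays limits the precision. The 75th percentile of the signal was 126 ± 10.9 in NZO and 148 ± 11.1 in B6 (SD, n = 4, exact two-sided permutation test p = 0.0857, smallest possible p 0.0286), and 53.3% ± 2.15 and 55.9% ± 3.03 of spots were well above background (SD, n = 4, exact permutation p = 0.257).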

Additional observations from a re-analysis of the deposited data

Results flagged for a closer look

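Of 60 sets of 4 arrays examined, 3 held an array far from the other 3 of its strain, and chance gives about 1 in 20. The sets covered the member probes and part of the list genes named, in each strain. The near-background Rora probe A_55_P2068006 read -2.83 in B6 mouse 010, above the other B6 mice. Por read 3.02 in NZO mouse 009, below the other NZO mice. Abcg5 read 5.31 in B6 mouse 015, above the other B6 mice.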

How the results depend on the processing

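No result called at the thresholds changed sign under any alternative. Nr1i3 kept its call before adjustment in all of them, and the count of member probes called lower stayed within 1.5 times the reported count. Over the whole array, normexp background correction called 651 probes higher and 614 lower (616 and 583 after adjustment), use of the unscaled deposited values 602 higher (576 after adjustment), the filter on all 8 arrays 1191 lower (965), the slide as a fixed block 498 higher after adjustment and the methods' t-test 890 lower after adjustment. The deposited table moved the median of all probes to -0.15, and with it the medians of the LXR targets (-0.37), PXR and CAR targets (-0.34), ROR alpha and Rev-erb genes (-0.082) and coregulators (-0.26). The slide as a fixed block gave medians of 0.025 for PXR and CAR targets and 0.62 for ROR alpha and Rev-erb genes. All strain differences of that fit came from NZO mouse 003 and B6 mice 010 and 015, on the shared slide. Genes called became 1 LXR and 1 FXR target with the slide as a fixed block, 3 PXR and CAR targets on probes above background on all 8 arrays, 1 other nuclear receptor with that filter or normexp, 2 ROR alpha and Rev-erb genes with the mean over probes, and 2 POR partners with normexp, the deposited table, the slide, the scan day, the methods' t-test or the mean over probes. The cause was not tested. Without 1 mouse at a time, the genes called ranged from 1 to 3 (LXR targets; 1 without NZO mouse 007), 1 to 2 (ROR alpha and Rev-erb; 2 without NZO mouse 007), 2 to 5 (other nuclear receptors; 5 without B6 mouse 010) and 2 to 3 (POR partners), and the median of the ROR alpha and Rev-erb genes from -0.091 (without B6 mouse 015) to 0.48. The other list medians ranged from -0.31 to -0.041 (LXR targets), 0.096 to 0.18 (FXR targets), -0.23 to -0.048 (PXR and CAR targets), 0.071 to 0.13 (other nuclear receptors), -0.084 to 0.026 (coregulators) and -0.14 to -0.037 (POR partners).

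Mouse numbers 009 and 011 occur in both strains. Deviations of same-numbered mice from their strain means correlated by -0.26 and -0.00. Mice of different numbers reached -0.35 and 0.35 (NZO mouse 007 with B6 mice 010 and 009). Whether a shared number marks a pair cannot be decided from these values. With the number as a replicate block (4 arrays), 72 probes were higher and 134 lower after adjustment, both Nr1i3 probes were past the thresholds before adjustment only (adjusted p = 0.102 and 0.0962, limma), 1 member probe was called higher (the dim Rora probe, 0.83), Nr1h4 differed by 0.52 and Nr1i2 by 0.49 (neither called), and 1 LXR target, 0 ROR alpha and Rev-erb genes and 1 POR partner were called.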
